A study of Mus musculus with 12 samples.

Results

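Complement genes were followed in mouse peritoneal macrophages: the 3 C1q subunit genes (C1qa, C1qb, C1qc), the central component gene C3, the alternative pathway genes Cfb and Cfp, and the anaphylatoxin receptor genes C3ar1 and C5ar1. The members were chosen by name, and each symbol was matched to 1 Ensembl gene, giving 8 of the 41388 genes in the count tables. RNA sequencing covered 12 libraries in 4 groups of 3. The macrophages had been drawn into the peritoneal cavity by thioglycolate, collected on day 4, plated, and treated on the following day for 8 h. The control groups are labelled LysM-Cre and carry the myeloid Cre driver alone. The other groups are labelled LysM-PPARg and described as PPARg knockout cells made with the same driver, so that all 12 libraries come from cells with Cre and the deletion is limited to cells in which the LysM promoter is active. Each genotype was given vehicle (BSA-PBS) or the saturated fatty acid palmitate at 250 uM combined with the bacterial endotoxin LPS at 100 ng/ml. The labels do not say whether the libraries of a group come from separate mice or cultures, so the p-values measure the spread between these libraries, which may be technical.

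Complement is a cascade of plasma and tissue proteins that tags particles for uptake and releases small inflammatory peptides. C1q, built from A, B and C chains, binds immune complexes and dying cells and starts the classical pathway. All pathways meet at C3, and the alternative pathway amplifies its cleavage through factor B (Cfb), with properdin (Cfp) stabilising the convertase. The released peptides C3a and C5a act on macrophages and other cells through the receptors encoded by C3ar1 and C5ar1. Most plasma complement is made in the liver, while macrophages are a main source of C1q and properdin.

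All 8 genes lie on the minus strand of GRCm38, with coordinates as the count tables give them. The C1q genes are neighbours on chromosome 4: C1qb (ENSMUSG00000036905) at 136880129 to 136886187, C1qc (ENSMUSG00000036896) at 136889804 to 136893065, and C1qa (ENSMUSG00000036887) at 136895917 to 136898803. On chromosome 17 lie Cfb (ENSMUSG00000090231) at 34856374 to 34862518 and C3 (ENSMUSG00000024164) at 57203970 to 57228136. Cfp (ENSMUSG00000001128) is on chromosome X at 20925454 to 20931555, C3ar1 (ENSMUSG00000040552) on chromosome 6 at 122847138 to 122856161, and C5ar1 (ENSMUSG00000049130) on chromosome 7 at 16246743 to 16259540.

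RefSeq promoter windows of GRCm38.p6 were matched by symbol for 6 of the 8 genes, and the 250 bases before the RefSeq start were searched on both strands for 7 short motifs. The windows of C1qb, C3 and C3ar1 are shown because the results below turn on these genes: the most abundant C1q subunit and the 2 of the 8 genes with the largest genotype difference under palmitate plus LPS. They are written 5′ to 3′ on the gene's strand, and capitals mark the letters of a motif match.
C1qb, chr4:136886201-136886450, minus strand: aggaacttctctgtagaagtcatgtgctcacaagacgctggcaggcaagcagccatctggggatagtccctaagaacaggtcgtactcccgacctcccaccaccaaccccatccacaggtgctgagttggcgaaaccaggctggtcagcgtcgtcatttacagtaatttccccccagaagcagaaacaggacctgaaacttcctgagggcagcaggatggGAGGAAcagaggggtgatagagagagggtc
C3, chr17:57228137-57228386, minus strand: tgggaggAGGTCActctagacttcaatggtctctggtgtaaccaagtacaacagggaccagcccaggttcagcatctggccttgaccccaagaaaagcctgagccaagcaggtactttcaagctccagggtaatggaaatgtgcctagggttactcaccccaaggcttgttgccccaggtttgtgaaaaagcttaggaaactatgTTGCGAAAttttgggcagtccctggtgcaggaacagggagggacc
C3ar1, chr6:122856158-122856407, minus strand: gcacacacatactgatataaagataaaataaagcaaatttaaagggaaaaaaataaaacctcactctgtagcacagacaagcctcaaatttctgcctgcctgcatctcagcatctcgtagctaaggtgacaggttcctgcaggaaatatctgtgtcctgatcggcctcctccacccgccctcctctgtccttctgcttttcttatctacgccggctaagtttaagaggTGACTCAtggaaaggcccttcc
In C1qb the capitals are a PU box, GAGGAA, 30 to 25 bases before the start. In C3 they are a nuclear receptor half-site, AGGTCA, 243 to 238 bases before the start, and a C/EBP motif, TTGCNNAA, 45 to 38 bases before it. In C3ar1 they are an AP-1 motif, TGANTCA, 22 to 16 bases before the start. C1qc held a PU box at 193 to 188 and a half-site at 174 to 169, both on the opposite strand. The NF-kB motif (GGGA and TTTCC with any base between), the interferon-stimulated response element (GAAA, any 2 bases, GAAA) and the gamma-activated site TTCNNNGAA had no match in the 6 windows, and the windows of Cfp and C5ar1 held none of the 7. No matches overlapped. Over all 32536 RefSeq windows of the same length, the PU box was found in 23.4%, the half-site in 14.0%, the C/EBP motif in 9.57%, the gamma-activated site in 7.04%, the AP-1 motif in 6.73%, the response element in 2.98% and the NF-kB motif in 0.36%. A match is a description of the letters and not a binding site.

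The libraries held 17960457 to 22696385 counts. Pparg, the gene named in the knockout label, had 73.5, 71.3 and 67.2 CPM of the library total in the control vehicle libraries and 115, 104 and 112 in those labelled knockout, which goes against the label. Counts per gene also cover exons that a conditional deletion leaves in place and do not check the deletion, so the groups are called libraries labelled knockout. Macrophage markers summed to 6109 to 8843 CPM over 8 genes. Of these Cd68 alone averaged 4167 to 5868 CPM in the 4 groups. The lowest in control vehicle were Lyz2 at 21.2, Fcgr1 at 32.1 and Mertk at 66.2 CPM. Markers of resident large peritoneal macrophages summed to 17.1 to 29.6 and of small ones to 131 to 197 CPM. Of the latter markers Itgax alone averaged 146 to 182 CPM in the 4 groups, while Irf4 reached 5.38, Ccr2 4.78 and Cd226 0.0753 CPM at most. Summed markers reached at most 13.2 CPM for dendritic cells, 8.65 for mast cells, 8.23 for eosinophils, 7.82 for B cells, 0.629 for T and NK cells and 0.261 for erythroid cells. Lyz2, whose promoter drives the Cre, averaged 21.2 CPM in the control vehicle group and 114 with palmitate plus LPS. Vehicle replicate 1 labelled knockout stood apart by exon length: its genes under 1500 bases were higher than in the group's other libraries by a median of 0.44 on the log2 scale and those over 5000 bases were lower, at -0.22. In the other 11 libraries the medians of these length classes lay between -0.25 and 0.12. Results that turn on this library are given with and without it.

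Levels are compared between genes as TMM-normalised CPM per kilobase of exon. In the control vehicle libraries C1qb was the most abundant at 530 ± 32.6 per kilobase (SD, n = 3), followed by C3ar1 at 283 ± 8.00, C5ar1 at 193 ± 13.4, Cfp at 139 ± 7.43, C1qa at 53.5 ± 3.57, C1qc at 27.8 ± 1.25, C3 at 5.70 ± 0.469 and Cfb at 0.104 ± 0.0232. No 2 neighbours in this order overlapped in their libraries, and the vehicle libraries labelled knockout kept the order. Palmitate plus LPS changed it. In the stimulated controls C1qb still led at 346 ± 21.7, but Cfp (86.0 ± 3.14) and C3ar1 (85.8 ± 7.86) overlapped, as did Cfb (12.2 ± 0.400) and C3 (11.1 ± 1.23) at the low end. In the stimulated libraries labelled knockout, C1qb stood at 562 ± 54.8 per kilobase and C3ar1 at 173 ± 13.9. C3, at 27.9 ± 2.11, was above C1qc (20.4 ± 1.38) and Cfb (15.9 ± 0.574), and only C5ar1 (56.3 ± 2.80) and C1qa (50.1 ± 3.57) overlapped. The value of Cfb per kilobase is uncertain. Of its 2825 exon bases 2246 (79.5%) also belong to the readthrough gene Gm20547, which has 0 counts in all libraries, and how reads in shared exons were handled is not given in the sources used here. Divided by the 579 unshared bases instead, Cfb stood at 0.509, 0.999, 59.3 and 77.4 per kilobase in the control vehicle, labelled knockout vehicle, stimulated control and stimulated labelled knockout groups.

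**Figure D1:**
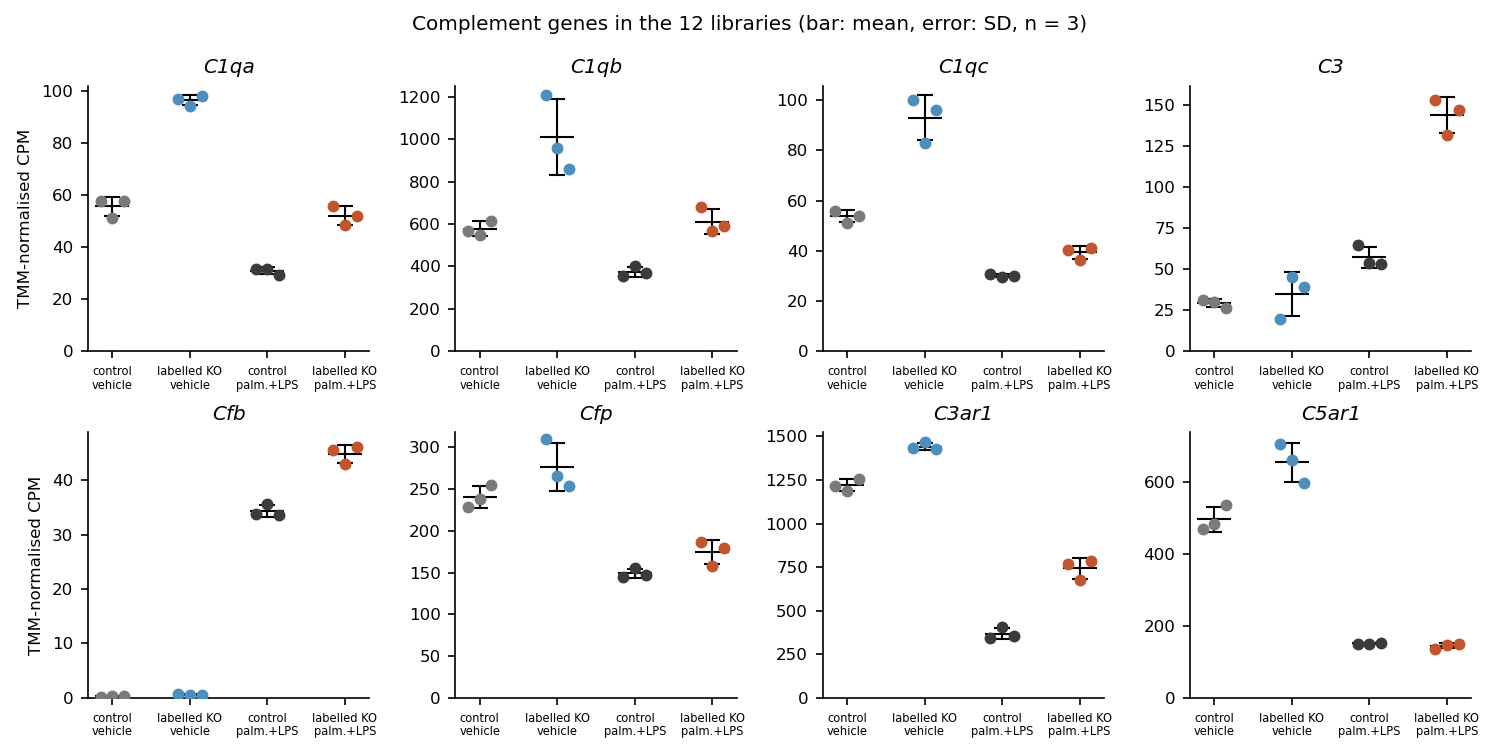
Levels of the 8 complement genes in TMM-normalised CPM (y axis, linear, from 0, with its own range in each panel) in the 4 groups; points are libraries, the long bar is the mean and the error bar the SD of 3 libraries. Cfb is near 0 in vehicle and between 33.7 and 46.0 CPM after palmitate plus LPS, C3 reaches 132 to 153 CPM in the stimulated libraries labelled knockout, and C3ar1 and C5ar1 fall with stimulation.

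The first comparison is between genotypes without stimulation. The C1q genes were higher together in the vehicle libraries labelled knockout, each by about the same factor: 1.73-fold for C1qa, 1.75-fold for C1qb and 1.73-fold for C1qc. The C5a receptor gene C5ar1 was 1.32-fold higher. C3, Cfb, Cfp and C3ar1 did not pass the test. Of the 8 genes 4 were thus called higher and 0 lower by edgeR's quasi-likelihood test, with Benjamini-Hochberg adjustment over 12914 genes and a threshold of 0.05, where 2.11% of all genes tested were called higher and 1.69% lower. The median log2 difference was 0.60 over the 8 genes and 0.01 over all genes tested.

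C1qa, the A chain of C1q, had 57.7, 51.3 and 57.9 TMM-normalised CPM in the control libraries and 97.1, 94.3 and 98.1 in those labelled knockout. The libraries labelled knockout lay far above all controls, and the log2 difference was 0.79 ± 0.08 (edgeR adjusted p = 1.83e-05). C1qb, the B chain, had 566, 548 and 616 CPM against 1207, 957 and 860 CPM. The groups did not overlap, and the highest library labelled knockout was replicate 1, the library that stands apart by exon length. C1qb has 1088 exon bases and C1qa 1040, and C1qa was not highest in that library. The part of exon length was not tested. The log2 difference of C1qb was 0.81 ± 0.11 (edgeR adjusted p = 0.000405), and 0.66 without that library (adjusted p = 2.37e-07). C1qc, the C chain, had 55.9, 51.1 and 54.0 CPM against 100.1, 83.0 and 96.0 CPM, again without overlap, with a log2 difference of 0.79 ± 0.09 (edgeR adjusted p = 3.71e-05). In bulk RNA, a different share of cells of a type and a different amount of RNA per cell cannot be told apart, here and in all comparisons below.

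C5ar1, the C5a receptor, had 470, 484 and 536 CPM in the control vehicle libraries and 706, 660 and 598 in those labelled knockout. The groups did not overlap, and the log2 difference was 0.40 ± 0.08 (edgeR adjusted p = 0.00835). This call was lost without control vehicle replicate 1 (0.36, adjusted p = 0.0677) or replicate 2 (0.38, adjusted p = 0.0628), and when only the 2 groups were fitted (0.39, adjusted p = 0.107). C3ar1, the C3a receptor, had 1215, 1189 and 1257 CPM against 1434, 1465 and 1425 CPM. Its groups did not overlap either, but the log2 difference of 0.24 ± 0.08 missed the threshold (edgeR adjusted p = 0.140); without vehicle replicate 1 labelled knockout it was 0.25 and passed (adjusted p = 0.0367).

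C3 is the gene for which 1 library decided the outcome. It had 31.1, 30.3 and 26.6 CPM in the controls and 19.6, 45.5 and 39.3 in the libraries labelled knockout, so that replicate 1 lay below every control and the other two above. C3 has 5143 exon bases, and the median log2 difference of genes over 5000 bases in that library was -0.22. The part of exon length in the C3 values was not tested. With all libraries the log2 difference of C3 was 0.25 ± 0.21 (edgeR adjusted p = 0.561). Without replicate 1 labelled knockout it was 0.53 ± 0.09 and passed the threshold (adjusted p = 0.000335), and over all fits that left out 1 library it ran from 0.01 to 0.53. Properdin (Cfp) had 229, 239 and 255 CPM in controls and 309, 266 and 254 in the libraries labelled knockout. These overlapped, with a log2 difference of 0.20 ± 0.09 (edgeR adjusted p = 0.281) that was 0.11 without replicate 1 labelled knockout. Cfb, encoding factor B, was barely present: 6, 8 and 7 counts in the controls and 13 in each library labelled knockout, a log2 difference of 0.97 ± 0.26 (edgeR adjusted p = 0.139).

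The second comparison is between genotypes after palmitate plus LPS. The 3 C1q genes, C3, Cfb and C3ar1 were higher in the libraries labelled knockout. C3 was 2.51-fold and C3ar1 2.01-fold higher, C1qa 1.68-fold, C1qb 1.63-fold, C1qc 1.31-fold and Cfb 1.30-fold. Cfp missed the threshold and C5ar1 stood at 0.956 of the control level. In all, 6 of the 8 genes were called higher and 0 lower, where 10% of all genes tested were called higher and 6.10% lower. The median log2 difference was 0.54 over the 8 genes and -0.01 over all genes tested.

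C3 had 64.5, 53.8 and 53.3 CPM in the stimulated controls and 153, 132 and 147 CPM in the stimulated libraries labelled knockout. The lowest of the latter was about double the highest control. The log2 difference of C3 was 1.33 ± 0.21 (edgeR adjusted p = 0.000511) and stayed between 1.28 and 1.41 when any 1 library was left out. C3ar1 had 344, 408 and 356 CPM in the controls and 769, 675 and 786 in the libraries labelled knockout, again without overlap, a log2 difference of 1.01 ± 0.08 (edgeR adjusted p = 1.36e-06). C5ar1, in contrast, had 150, 151 and 154 CPM against 137, 148 and 150 CPM. The groups overlapped, and its log2 difference was -0.06 ± 0.08 (edgeR adjusted p = 0.625).

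Among the C1q genes, C1qa had 31.7, 31.8 and 29.5 CPM in the controls and 55.8, 48.4 and 52.1 in the libraries labelled knockout, with a log2 difference of 0.75 ± 0.08 (edgeR adjusted p = 2.21e-05). C1qb had 356, 402 and 369 CPM against 678, 565 and 590 CPM, a log2 difference of 0.70 ± 0.11 (edgeR adjusted p = 0.000542). C1qc had 30.9, 29.5 and 30.1 CPM against 40.5, 36.3 and 41.3 CPM, and its log2 difference was smaller, at 0.38 ± 0.09 (edgeR adjusted p = 0.00863). None of the 3 genes overlapped between the groups, and the share of all genes without overlap was not computed. Cfb had 641, 661 and 650 counts in the controls and 773, 793 and 876 in the libraries labelled knockout, or 33.7, 35.7 and 33.7 CPM against 45.5, 43.0 and 46.0 CPM. The groups of Cfb did not overlap, and the log2 difference was 0.38 ± 0.08 (edgeR adjusted p = 0.00589). Cfp had 145, 156 and 147 CPM against 186, 158 and 179 CPM. The groups of Cfp came close without overlapping, and its log2 difference of 0.23 ± 0.09 missed the threshold (edgeR adjusted p = 0.0998). It passed with the 2 groups alone (0.22, edgeR adjusted p = 0.0139) and without vehicle replicate 1 labelled knockout (0.22, adjusted p = 0.00684). Calls over all genes also rose in these fits, from 1293 higher and 788 lower to 2103 and 1708, and to 2251 and 1829.

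Markers of fibroblasts and mesothelial cells moved with this comparison. Their summed level over 12 genes was 145 to 168 CPM in the stimulated controls and 350, 200 and 246 CPM in the stimulated libraries labelled knockout, and 6 of the 11 measured markers were higher (Col1a1, Col1a2, Col3a1, Pdgfra, Upk3b and Krt19) and 0 lower. In vehicle the sums were 119 to 139 and 153 to 198 CPM, with 0 of 11 called by edgeR. Replicate 1 labelled knockout, with the highest sum, also had the highest C3 and C1qb of its group. Without that library the log2 difference of C3 was 1.28 (edgeR adjusted p = 0.00397). The marker sums of the remaining libraries labelled knockout, 200 and 246 CPM, were also above those of all stimulated controls. Summed neutrophil markers (11 genes) were 107 to 117 CPM in the stimulated controls and 144 to 174 CPM in those labelled knockout, against 78.6 to 82.2 and 113 to 117 in vehicle. Mmp8 was higher in both comparisons, Cxcr2 in vehicle and Csf3r under stimulation, S100a8 was lower under stimulation, Ly6g had 0 counts in all libraries and S100a9 had 2 counts in all. The part of either cell type in the complement differences was not tested.

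**Figure D2:**
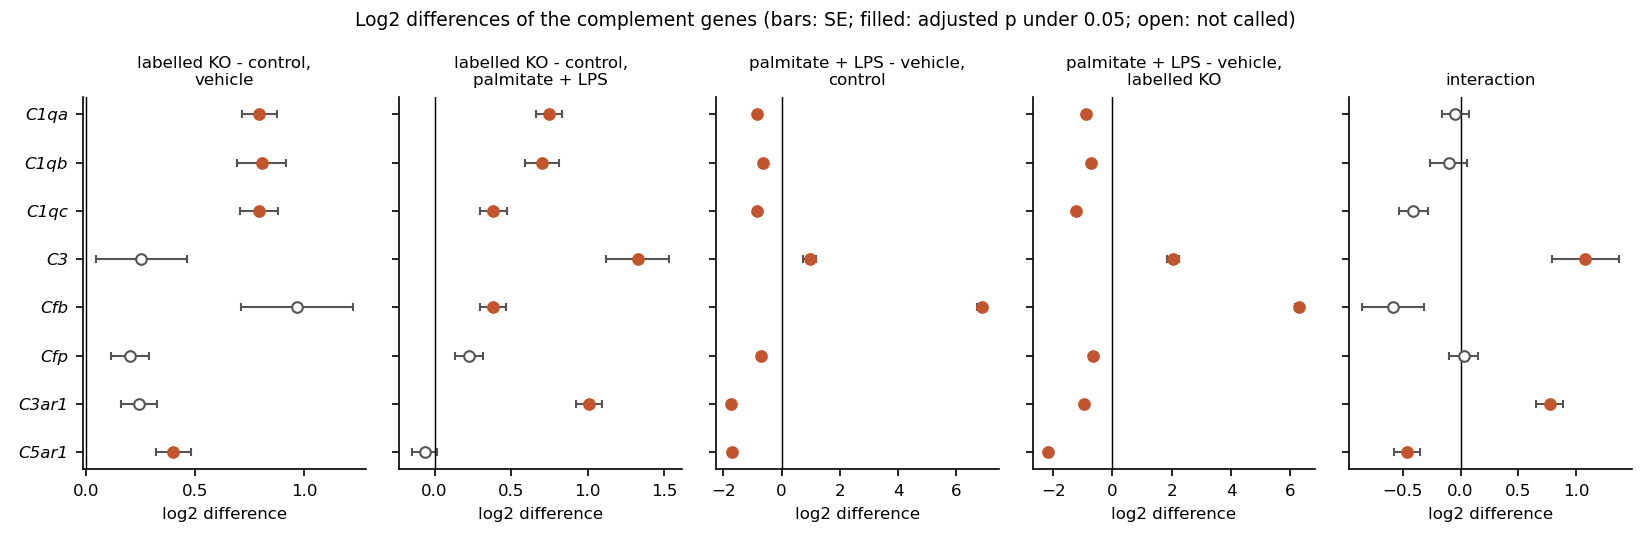
Log2 differences (x axis, with its own range in each panel) of the 8 complement genes in the 5 comparisons; bars are standard errors, and filled points passed an edgeR adjusted p of 0.05. In both genotype panels the called genes lie to the right of 0, and in both stimulation panels Cfb and C3 lie to the right and the other 6 genes to the left.

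The third and the fourth comparison follow palmitate plus LPS against vehicle within each genotype, and they use the same libraries as the comparisons above. In controls, factor B rose 116-fold and C3 1.95-fold, while the other 6 genes fell: both anaphylatoxin receptors to about 0.30 of their vehicle level and the C1q genes and properdin to between 0.56 and 0.65. So 2 of the 8 genes were higher and 6 lower, in a comparison where 32.0% of all genes tested were called higher and 34.7% lower. The median log2 difference was -0.76 over the 8 genes and -0.05 over all genes tested. In the libraries labelled knockout the same 8 directions were called, 2 higher and 6 lower, with 33.7% and 35.6% of all genes called and medians of -0.81 and -0.06.

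Cfb went from 0.295 ± 0.0655 to 34.4 ± 1.13 CPM in controls (SD, n = 3) and from 0.578 ± 0.0897 to 44.8 ± 1.62 CPM in the libraries labelled knockout. Its log2 difference was 6.86 ± 0.15 (edgeR adjusted p = 9.69e-16) in the former and 6.28 ± 0.13 (edgeR adjusted p = 7.26e-16) in the latter, each resting on 6 to 13 counts per vehicle library. C3 went from 29.3 ± 2.41 to 57.2 ± 6.34 CPM in controls and differed by 0.96 ± 0.21 on the log2 scale (edgeR adjusted p = 0.000895). In the libraries labelled knockout C3 went from 34.8 ± 13.5 to 144 ± 10.9 CPM, a log2 difference of 2.04 ± 0.21 (edgeR adjusted p = 5.47e-07). No stimulated library overlapped the vehicle libraries of its genotype for either gene.

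Among the receptors, C3ar1 fell from 1220 ± 34.4 to 369 ± 33.9 CPM in controls, by 1.72 on the log2 scale, but from 1441 ± 21.3 to only 743 ± 59.9 CPM in the libraries labelled knockout, by 0.96. C5ar1 fell from 497 ± 34.5 to 151 ± 2.18 CPM in controls, by 1.71, and from 655 ± 54.2 to 145 ± 7.21 CPM in the libraries labelled knockout, by 2.18. The 2 receptors' values were close in controls and apart in the libraries labelled knockout. Of the C1q genes, C1qa fell by 0.84 in controls and 0.89 in the libraries labelled knockout, C1qb by 0.62 and 0.72, and C1qc by 0.83 and 1.24 on the log2 scale. Cfp fell by 0.69 and 0.66. For these 6 genes edgeR's adjusted p was at most 0.00016. Neither genotype's groups overlapped, and the share of all genes without overlap was not computed. Scaling by total counts in place of TMM moved the median of all genes from -0.05 to -0.38 in controls and from -0.06 to -0.42 in the libraries labelled knockout. Under it C3 differed by 0.63 (edgeR adjusted p = 0.0373) in controls, and all 8 directions were still called in both genotypes.

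The interaction tests whether the response differed between genotypes, by subtracting the log2 response of the controls from that of the libraries labelled knockout. It was positive for C3 and C3ar1 and negative for C5ar1. C1qa, C1qb, Cfb and Cfp did not pass, and C1qc missed narrowly. The count was 2 of 8 higher and 1 lower, where 4.70% of all genes tested were called higher and 3.35% lower, and the medians were -0.08 over the 8 genes and -0.01 over all genes.

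For C3ar1 the interaction was 0.77 ± 0.12 (edgeR adjusted p = 0.00144), and it passed under each of 19 other settings, with values from 0.72 to 0.85. For C5ar1 it was -0.46 ± 0.11 (edgeR adjusted p = 0.0230). That call was lost in 6 of 19 other settings, among them without control vehicle replicate 1 or 2, stimulated control replicate 2 or 3, or stimulated replicate 1 labelled knockout, with values from -0.47 to -0.42 and edgeR adjusted p from 0.0559 to 0.0765. For C3 it was 1.08 ± 0.29 (edgeR adjusted p = 0.0375). That call was lost in 10 of 19 other settings, among them with total-count scaling (1.02, adjusted p = 0.0856) and without any 1 of the 3 control vehicle libraries, stimulated control replicate 2 or 3, or any 1 of the 3 stimulated libraries labelled knockout, with values from 1.03 to 1.14 and adjusted p from 0.0506 to 0.0949. Without vehicle replicate 1 labelled knockout it was 0.80 ± 0.12 and passed (edgeR adjusted p = 6.00e-05). C1qc, at -0.41 ± 0.12 (edgeR adjusted p = 0.0552), passed as lower in 5 of 19 other settings, among them without vehicle replicate 1 (-0.36, adjusted p = 0.0207) or replicate 2 (-0.48, adjusted p = 0.0224) labelled knockout. The interaction of Cfb was -0.58 ± 0.27 (edgeR adjusted p = 0.304), that of C1qb -0.10 ± 0.16 (0.701), that of C1qa -0.05 ± 0.12 (0.824) and that of Cfp 0.03 ± 0.13 (0.912).

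Ratios between genes within a library do not depend on how libraries are scaled. The ratio of C1qc to C1qa per kilobase was alike in 3 of the groups. It was 0.523, 0.537 and 0.502 in control vehicle and 0.555, 0.474 and 0.527 in labelled knockout vehicle. In stimulated control libraries it was 0.524, 0.500 and 0.549. In the stimulated libraries labelled knockout it was 0.391, 0.405 and 0.427, below every other library. The ratio of C3ar1 to C5ar1 had a like pattern in the opposite direction. It was 1.54, 1.47 and 1.40 in control vehicle, 1.21, 1.33 and 1.42 in labelled knockout vehicle, 1.37, 1.61 and 1.38 in stimulated control, and 3.36, 2.73 and 3.13 in stimulated libraries labelled knockout. The last 3 values lay above all others.

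C1qb exceeded C1qa by a mean ratio per kilobase of 9.92 ± 0.471 in control vehicle, 9.99 ± 1.77 in labelled knockout vehicle, 11.6 ± 0.751 in stimulated control and 11.2 ± 0.403 in stimulated labelled knockout libraries (SD, n = 3). The ratio of C1qc to C1qb was 0.0525 ± 0.00318, 0.0528 ± 0.00881, 0.0454 ± 0.00377 and 0.0364 ± 0.00291 in the same order. Between stimulated and vehicle controls the log2 ratio differed by 0.22 for C1qb to C1qa and -0.21 for C1qc to C1qb, without overlap. The log2 ratio of C1qc to C1qa differed by -0.36 and that of C3ar1 to C5ar1 by 1.08 between the stimulated genotypes. Each gave a two-sided exact permutation p of 0.1, the smallest that 3 against 3 libraries allow, and 0.2 after adjustment over the 16 ratio comparisons. This exact test therefore cannot reach 0.05 for a ratio, and no model was fitted to the ratios.

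**Figure D3:**
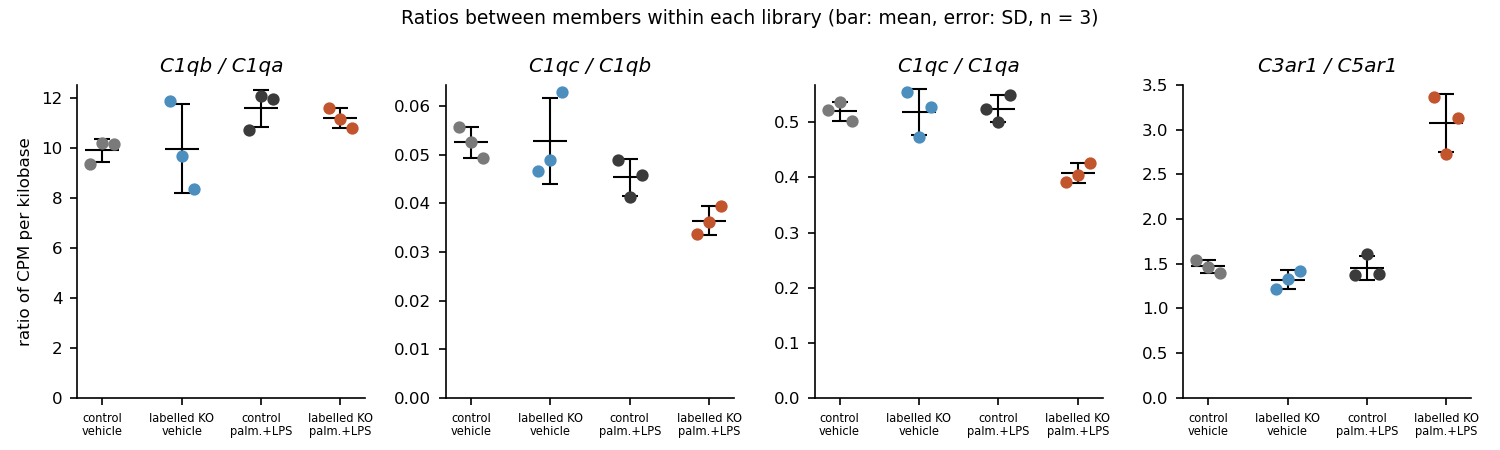
Ratios between complement genes within each library (y axis, ratio of CPM per kilobase of exon, linear, from 0) in the 4 groups; points are libraries, the long bar is the mean and the error bar the SD of 3 libraries. The stimulated libraries labelled knockout stand apart from the other 9 for C1qc to C1qa (0.391 to 0.427) and for C3ar1 to C5ar1 (2.73 to 3.36).

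The genes in these ratios differ in exon length: C1qb has 1088 bases, C1qa 1040, C1qc 1931, C5ar1 2570 and C3ar1 4305. C1qb and C1qa are both in the class under 1500 bases. In vehicle replicate 1 labelled knockout the ratio of C1qb to C1qa was 11.9, above the group's other libraries at 9.70 and 8.38, and that of C3ar1 to C5ar1 was the lowest of all 12 libraries at 1.21. The part of exon length in these values was not tested.

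**Figure D4:**
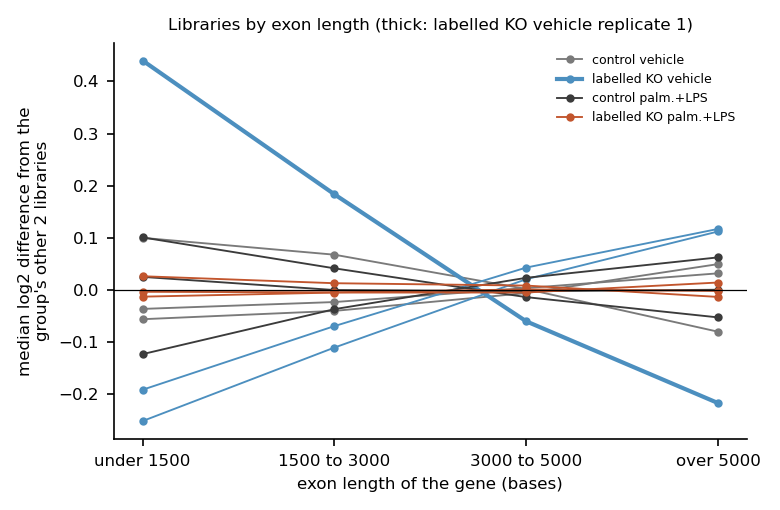
Median log2 difference of each library from the other 2 libraries of its group (y axis) for genes in 4 classes of exon length in bases (x axis); each line is a library. Vehicle replicate 1 labelled knockout, the thick line, runs from 0.44 for genes under 1500 bases to -0.22 for genes over 5000 bases, while the other 11 libraries lie between -0.25 and 0.12.

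The genes whose pattern over the 12 libraries was most like that of a member were found among 6786 genes with a mean of at least 10 CPM, by the root mean square difference of centred log2 levels. For C1qa they included Mfge8 (0.18) and Clec4a1 (0.21). For C1qb they were Mfge8 (0.11), Clec4a1 (0.13) and Npy (0.14). C1qc had Tspan13 (0.16) and Rsph9 (0.21) among its nearest, while C1qa and C1qb had Mfge8 and Clec4a1 in common. Nearest to C3 were Focad (0.20), Lrrc32 (0.21) and Nectin4 (0.23), and nearest to Cfb were Zbp1 (0.20), Irf7 (0.21) and Ifi47 (0.23). Cfp lay in a dense neighbourhood led by Ctsb (0.05), Tpp1 and Snap47 (both 0.09), with 346 genes within 0.2. C3ar1 had Rin2 at 0.08 and then only Cytip (0.20) and Gpx3 (0.22), and C5ar1 had Cd300ld (0.08), Ssbp3 (0.11) and C77080 (0.12). Stimulation splits the libraries into clusters, so these values describe likeness and carry no test.

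Other complement genes were taken from a list of 48, of which 24 had enough counts to be tested. The other 24, among them Hc (encoding C5), Cfd, Cfi, Mbl1, Mbl2, C6, C7 and Vtn, had at most 71 counts over all 12 libraries. Between genotypes in vehicle, 0 of 24 were called in either direction by edgeR, where 2.11% of all genes tested were called higher and 1.69% lower. An unadjusted edgeR p under 0.05 was found for 10 (5 higher, 5 lower). The share of all genes under that cutoff was not computed, so the 10 cannot be judged against it. DESeq2 called 1, Clu, higher. Without vehicle replicate 1 labelled knockout Fcna was called lower (-0.42, edgeR adjusted p = 0.00081). Without stimulated replicate 1 labelled knockout Serping1 (0.59) and Clu (0.73) were called higher, and without vehicle replicate 3 labelled knockout Vsig4 was (0.52). With no filter on low counts 3 were called higher (Clu, Serping1 and C1s1) and 2 lower, C4b among them. Under palmitate plus LPS the libraries labelled knockout had 4 of 24 higher and 1 lower, where 10% and 6.10% of all genes tested were called. Without vehicle replicate 1 labelled knockout the counts were 7 and 3 of 24, while the calls over all 13148 genes then tested rose to 2251 higher and 1829 lower.

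The 4 were Serping1, encoding the C1 inhibitor, C4b, and the genes of the proteases that act with C1q, C1ra and C1s1. Serping1 had 14.2, 13.4 and 13.8 CPM in stimulated controls and 40.5, 23.3 and 26.6 CPM in those labelled knockout, without overlap. Its log2 difference was 1.12 ± 0.17 (edgeR adjusted p = 0.000333), and 0.85 without replicate 1 labelled knockout, the library with the most fibroblast marker counts. C4b had 9.95, 9.71 and 8.96 CPM against 15.1, 16.8 and 17.3 CPM, a log2 difference of 0.78 ± 0.19 (edgeR adjusted p = 0.0110) that missed the threshold without control replicate 3 (0.74, adjusted p = 0.0548). C1ra differed by 0.56 ± 0.14 (edgeR adjusted p = 0.0158) and lost its call without stimulated control replicate 1 (0.45) or 3 (0.53) or stimulated replicate 1 labelled knockout (0.41, adjusted p = 0.0972). C1s1 differed by 0.72 ± 0.22 (edgeR adjusted p = 0.0382) and lost its call in 11 of 19 other settings, among them without any 1 of 8 libraries, with values from 0.44 to 0.78 and adjusted p up to 0.208. The lectin pathway gene Fcna, encoding ficolin A, was lower, at -0.49 ± 0.11 (edgeR adjusted p = 0.00634). C4b and C1ra have near-identical copies, C4a and C1rb, so that their counts are uncertain.

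Upon stimulation 6 of the 24 genes rose and 14 fell in controls, and 6 rose and 15 fell in the libraries labelled knockout. Of all genes tested 32.0% rose and 34.7% fell in controls, and 33.7% rose and 35.6% fell in the libraries labelled knockout, so that the share of the 24 that rose was below that of all genes and the share that fell above it. In controls Clu, encoding clusterin, rose by 2.59 ± 0.25, C1ra by 2.02 ± 0.17, Serping1 by 1.60 ± 0.19 and the membrane regulator Cr1l by 1.05 ± 0.08 on the log2 scale. Receptors fell: the log2 difference was -4.79 ± 0.17 for the C5a-binding receptor gene C5ar2, -3.24 ± 0.09 for Cd93, -1.11 ± 0.08 for the integrin chain gene Itgb2 and -1.59 ± 0.13 for Lrp1. In the libraries labelled knockout the values were 2.46 ± 0.24 for Clu, 2.35 ± 0.16 for C1ra, 2.13 ± 0.18 for Serping1 and 0.86 ± 0.08 for Cr1l. For the receptors they were -4.51 ± 0.18 (C5ar2), -3.20 ± 0.09 (Cd93) and -1.05 ± 0.08 (Itgb2). Of these genes Serping1 lay furthest from its value in controls, but its interaction of 0.53 ± 0.26 was not called (edgeR adjusted p = 0.203). Vsig4, a receptor for C3 fragments, fell to 0.425 of its vehicle level in controls and to 0.251 in the libraries labelled knockout. Apart from the interaction of Serping1, the edgeR adjusted p of each value in this paragraph was at most 2.58e-06. By role, 7 of 9 measured receptor genes fell in each genotype and 0 rose, and 3 of 4 genes of the classical proteases and C4 rose in each; these counts were not tested against the shares of all genes.

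The interaction called 1 of these 24 genes higher and 1 lower, where 4.70% of all genes tested were called higher and 3.35% lower, so that the counts were near the background. C4b fell from 19.4, 19.7 and 19.2 to 9.95, 9.71 and 8.96 CPM in controls, while the libraries labelled knockout had 8.60, 16.7 and 17.7 CPM in vehicle and 15.1, 16.8 and 17.3 CPM after stimulation, again with vehicle replicate 1 apart. Its interaction was 1.21 ± 0.26 (edgeR adjusted p = 0.0120) and 0.96 without that library (adjusted p = 7.05e-06). Vsig4 had an interaction of -0.76 ± 0.22 (edgeR adjusted p = 0.0442), which was lost in 10 of 19 other settings. Among these were the fits without any 1 of the 3 control vehicle libraries, stimulated control replicate 1 or 3, or any 1 of the 3 stimulated libraries labelled knockout, with values from -0.82 to -0.64 and adjusted p from 0.0640 to 0.109.

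**Figure D5:**
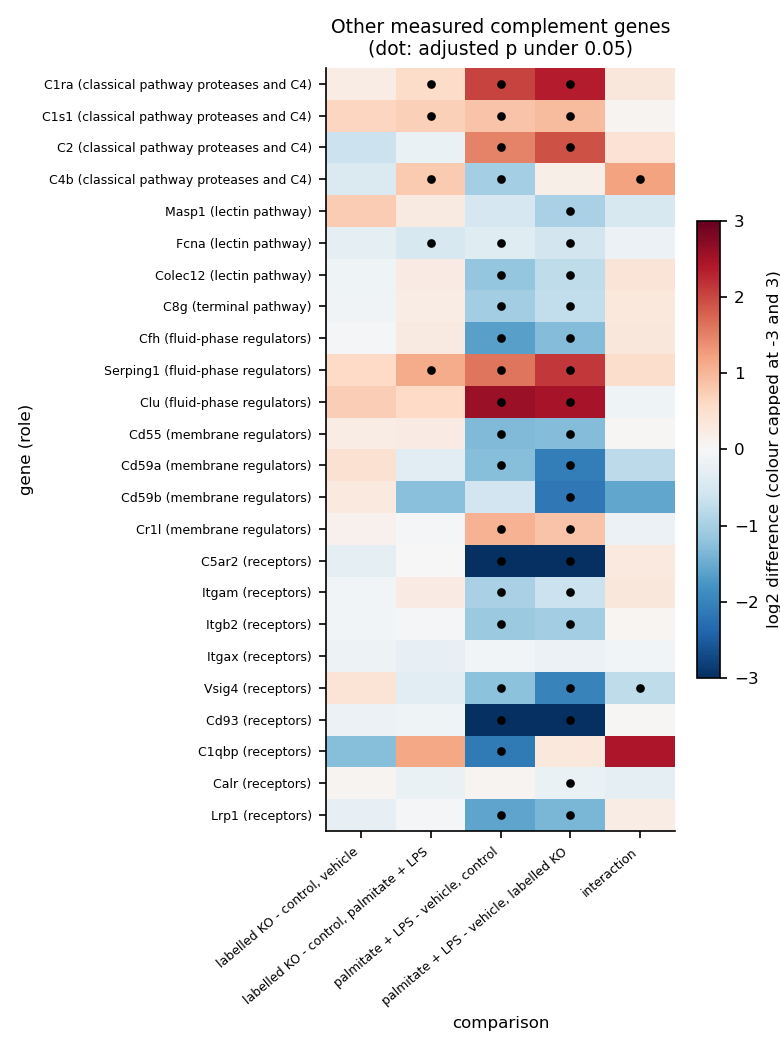
Log2 differences (colour, capped at -3 and 3) of the 24 measured complement genes outside the 8 (y axis, with their role) in the 5 comparisons (x axis); a dot marks an edgeR adjusted p under 0.05. The vehicle genotype column holds no dot, the stimulated genotype column holds 5, and most rows have a dot in both stimulation columns.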

How the data were processed

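Per the labels' protocols, RNA came from Ambion columns and libraries from Clontech SMARTer v1. Tools named in the submitters' processing notes are STAR 2.0.4b, featureCounts 1.45, Subread and bcl2fastq 2.0, with the build GRCm38; options, annotation release and strand setting: not given in the sources used here. The authors deposited 1 table per library with raw counts per gene, CPM and RPKM. Recomputing the deposited CPM (counts relative to a library's total) and the deposited RPKM (CPM per kilobase of exon) from the counts gave the same values to rounding; only counts entered a test.

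Groups follow the sample titles. Genes passing edgeR's filterByExpr (12914, all 8 members among them) were scaled by TMM and fitted with edgeR 4.0.16 (quasi-likelihood, robust; R 4.3.3) over all 12 libraries with 1 mean per group, giving 5 contrasts adjusted by Benjamini-Hochberg over all genes (threshold 0.05). The procedure was tested on simulated data with the same dispersion for every gene and no library set apart by exon length. That run therefore does not cover a library such as vehicle replicate 1 labelled knockout. Alternatives were total-count and DESeq2-style scaling, DESeq2 1.42.0, limma-voom 3.58.1, no low-count filter, a mean of at least 10 CPM, the 2 groups alone, a replicate block and leaving out each library; the unshared exon length of Cfb was added after seeing the data. Promoter windows come from RefSeq, GRCm38.p6.

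Named are the 8 members, Pparg, up to 4 genes of the wider list per comparison and direction (past the threshold, at least 5 CPM in the higher group, smallest p), the 3 genes most similar to each member, and markers; some are not reported here. The members and lists were chosen with earlier results of these data known. Other named genes were chosen after their values were seen. No 2 libraries held identical values. Samples of the same number did not deviate together, so the numbers were not treated as pairs. Markers of 11 cell classes were summed per library.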

Additional observations from a re-analysis of the deposited data

Results flagged for a closer look

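In 5 complement genes the response to palmitate plus LPS differed between the genotypes by edgeR's interaction test. Of the 8 genes 2 were called higher and 1 lower. Of the 24 other measured genes 1 was called higher and 1 lower, which was near the background. Over all genes tested 4.70% were called higher and 3.35% lower. The difference of log2 responses, labelled knockout minus control, was 1.08 for C3 and 0.77 for C3ar1, both higher in the libraries labelled knockout. It was -0.46 for C5ar1. Outside the 8 genes it was 1.21 for C4b and -0.76 for Vsig4. Of 19 other settings, 10 ended the call of C3, 6 that of C5ar1 and 10 that of Vsig4, while C3ar1 and C4b kept theirs in each. Groups of 3 libraries are too small for a test of single libraries that lie far from the others.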

How the results depend on the processing

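Over 40 results of the 8 genes and 792 alternatives, 764 kept their side of the threshold, 19 lost their call and 9 gained one. Of the called values 0 reversed, and 33 of the 40 results kept their side under all their alternatives. Values not called could change sign and still be counted as kept. The interaction ran from -0.10 to 0.01 for C1qa, from -0.21 to 0.04 for C1qb and from -0.03 to 0.11 for Cfp. The number of members called higher by the interaction, 2 with all libraries, was 1 with total-count scaling, 1 with the replicate block, and 1 to 2 when a library was left out. The number called lower, 1 with all libraries, was 2 with total-count scaling, DESeq2 or a mean of at least 10 CPM, 0 with the replicate block, and 0 to 2 when a library was left out. Leaving out a library gave 3 to 6 members higher in the vehicle comparison and 6 to 7 under palmitate plus LPS, and 2 higher and 6 lower in both stimulation comparisons. Calls over all 13113 to 13184 genes tested in these fits moved too. They ran from 129 to 431 higher in the vehicle comparison and from 794 to 2251 higher under palmitate plus LPS. With the replicate block, C3 (1.09, edgeR adjusted p = 0.0670) and C5ar1 (-0.47, adjusted p = 0.0624) lost their interaction call; the block changed no other call of the 8 genes. Same-numbered libraries of different groups had correlations of -0.31 to 0.07 in their deviations, none of 18 pairs over 0.1, so the numbers do not pair them. Total-count scaling moved the share of higher among called genes from 62.1% to 34.8% in the stimulated genotype comparison, from 48.0% to 29.2% in the control response, from 48.6% to 28.9% in the labelled knockout response and from 58.4% to 33.0% in the interaction. Of 32 levels per kilobase, 26 moved by over 1 SD when the deposited RPKM replaced the TMM-scaled values. Of the 24 most similar genes, 8 were also among the nearest by group means. Cfb rests on 6 to 13 counts per library in vehicle, which limits its genotype difference there.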
